A study of Mus musculus with 6 samples.

Results

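Aminoacyl-tRNA synthetases were followed through steady and cyclic low oxygen in B16 cells, an established mouse melanoma line. The genes were taken by their names: the letter of an amino acid followed by "ars" for the cytosolic enzymes (with Eprs, which holds the activities for glutamate and proline), and the ending "ars2" for the mitochondrial ones. Of 35 such genes listed, 24 were named on the array by a probe set that names a single gene, among 12393 genes named in this way. They were 16 of 18 cytosolic genes (Dars and Mars1 were not named) and 8 of 17 mitochondrial genes, with 43 probe sets in all. Each gene was represented by its brightest probe set, and all 24 genes passed the filter on low signal.

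There were 6 Affymetrix arrays, 1 per group, so no group had a replicate. Cells spent 3 h in normoxia, 3 h in chronic hypoxia (under 1% oxygen), or 3 hypoxic periods of 1 h each with 30 min of reoxygenation between them (cyclic hypoxia). For each of the 3 regimes, RNA was collected when the exposure ended and 1 h later, the added hour being reoxygenation for the hypoxic cells. All groups, controls included, had been without serum since 2 h before the exposure, and 5 µg of total RNA was labelled per array. The labels do not say whether the normoxia controls were kept for as long in all as the cyclic cells, and they do not describe separate cultures or clones. The 6 named melanoma markers, Tyr, Dct, Tyrp1, Pmel, Sox10 and Mitf, had signals of 635 to 7144 units in these arrays. Of 10 genes that mark keratinocytes, endothelium, immune cells or fibroblasts, 7 were below the filter, and Cd68, Lyz2 and Krt5 passed it, with 44.5 units as the highest signal among the 10. Each array held the RNA of a whole culture, so fewer cells of a type and less RNA per cell cannot be told apart.

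Aminoacyl-tRNA synthetases join each amino acid to its transfer RNAs before the ribosome can use it. Most animals carry separate sets of enzymes for the cytosol and for the mitochondrial matrix, although the genes for glycine and lysine (Gars and Kars) serve both compartments. Many cytosolic synthetase genes are known targets of ATF4, a transcription factor whose translation goes up when kinases phosphorylate the initiation factor eIF2 alpha, as happens in amino acid shortage, in endoplasmic reticulum stress and in severe hypoxia. Genes that ATF4 drives often carry an element in which TGATGNAA (N is any base) is the core, bound by ATF4 with a C/EBP partner.

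That core was looked for, on both strands, in the promoter windows of the synthetase genes (RefSeq, build GRCm38.p6, from 250 bases before to 50 bases after an annotated transcription start). Windows were at hand for 15 of the 24 genes, 9 cytosolic and 6 mitochondrial. The core was in the windows of 5 of the 9 cytosolic genes (55.6%), Aars, Gars, Iars, Tars and Yars, and in 0 of the 6 mitochondrial ones. Among all genes with windows of this length, 1219 of 27025 (4.51%) held it, and among the 29 ATF4 pathway genes with a window 9 did (31.0%). The stretches around the 6 matches are shown because they are the matches counted among the cytosolic genes. Each is written 5′ to 3′ along the strand of the gene with the core in capitals. In Yars it reads as spelled above, and in the others as its reverse complement.
Aars: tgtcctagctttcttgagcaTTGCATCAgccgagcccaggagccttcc
Aars: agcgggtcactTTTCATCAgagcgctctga
Gars: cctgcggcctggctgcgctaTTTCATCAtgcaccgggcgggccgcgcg
Iars: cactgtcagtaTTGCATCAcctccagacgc
Tars: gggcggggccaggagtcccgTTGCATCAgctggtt
Yars: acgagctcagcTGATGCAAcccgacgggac

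The Aars stretches lie at chr8:111033710-111033757 and chr8:111033840-111033869 on the plus strand, with the first base of the core 112 bases before and 9 bases after the annotated start of the window's transcript. In Gars (chr6:55037951-55037998, plus strand) the core begins 30 bases before the start, and in Tars (chr15:11399659-11399693, minus strand) 15 bases before it. In Iars (chr13:49682126-49682155, plus strand) and Yars (chr4:129189895-129189924, plus strand) it begins 7 and 3 bases after the start. The windows of Sars, Eprs, Kars and Qars held no match to these letters. Some windows lie at a transcript start inside the gene. The farthest from the gene's own start were Aars (base 111033842, gene start 111027778), Eprs (185363044, gene start 185361417) and Tars2 (95754977, gene start 95756365). Other starts of these genes were not searched. The letters ACGTG, the core of the element bound by the hypoxia-inducible factors, were in 5 of the 9 cytosolic windows (Aars, Eprs, Iars, Kars and Tars) and 2 of the 6 mitochondrial windows (Ears2 and Rars2), against 21.8% of all genes. The 2 motifs overlapped in 0 member windows. A match to such letters is a description of the sequence and not a measured binding site.

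At the end of hypoxia, 12 of 16 cytosolic synthetase genes were above normoxia in the chronic array and 14 in the cyclic array, and 4 and 3 of 8 mitochondrial ones. Of all 7746 genes measured, 3914 and 3645 were above normoxia in these arrays. After chronic hypoxia the 16 cytosolic genes had a median log2 difference of 0.49 from the normoxia array of the same collection, and after cyclic hypoxia 0.43. Over all 7746 genes measured the medians were 0.00 and -0.03. Mitochondrial genes had medians of 0.05 and -0.26. The hypoxia arrays of a collection share their normoxia array, so the columns of a collection are not independent of each other.

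After chronic hypoxia 6 of 16 cytosolic genes were at least 1.5-fold higher than in normoxia (7.91% of all genes were) and 0 were as much lower (8.39%). These were Eprs, Lars, Cars, Sars, Yars and Iars, and 1 of them, Eprs, was at least 2-fold higher (2.53%). After cyclic hypoxia 6 were at least 1.5-fold higher (8.44% of all genes) and 0 lower (14.7%), namely Lars, Sars, Yars, Eprs, Nars and Gars, of which Lars and Sars passed 2-fold (2.12%). Among the 8 mitochondrial genes, Ears2 was past 1.5-fold and past 2-fold in both, and Fars2 was past 1.5-fold after cyclic hypoxia, with 0 as much lower in either.

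One hour later the counts differed between the regimes. After chronic hypoxia with reoxygenation the cytosolic median was 0.22, with 0 genes past 1.5-fold higher (8.82% of all genes), 0 past 2-fold (2.98%) and 0 past 1.5-fold lower (5.05%). These counts are of the brightest probe sets. A dimmer probe set of each of Eprs (0.85), Wars (0.82) and Iars (0.65) was past 1.5-fold higher there, and the remaining ones of Eprs and Wars were not. With the mean of probe sets the count was still 0, and it was 7 after cyclic hypoxia with reoxygenation. After cyclic hypoxia with reoxygenation the median was 0.44, and 6 genes were at least 1.5-fold higher (10% of all genes), Sars, Cars, Iars, Gars, Tars and Aars, with 0 past 2-fold (3.56%) and 0 lower (19.7%). Medians over all genes were 0.00 at this collection after either regime. For mitochondrial genes the medians were -0.01 and -0.16, the latter turning to 0.01 with quantile normalization and to 0.02 with median centring. Hars2 and Sars2 were past 1.5-fold higher after chronic hypoxia with reoxygenation, and Ears2 was past 1.5-fold lower after cyclic hypoxia with reoxygenation.

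**Figure D1:**
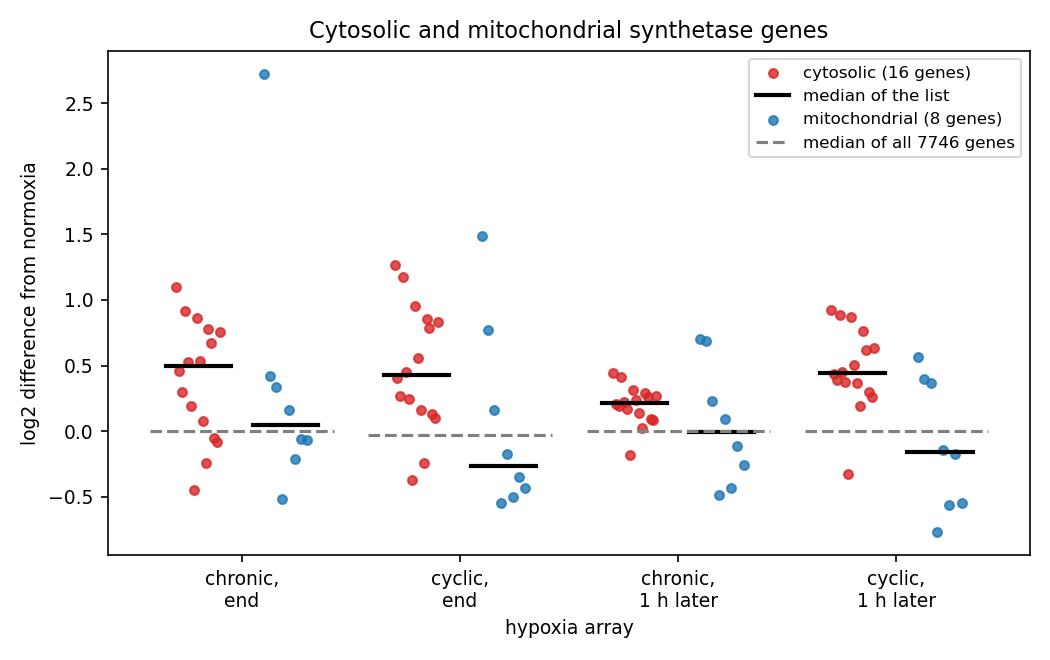
Log2 difference of each synthetase gene from the normoxia array of its collection (vertical axis) in the 4 hypoxia arrays (horizontal axis), with 1 point per gene, 16 cytosolic in red and 8 mitochondrial in blue, black bars at the list medians and dashed lines at the median of all 7746 genes. Cytosolic medians are 0.49, 0.43, 0.22 and 0.44 from left to right, and mitochondrial medians lie between -0.26 and 0.05.

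The cytosolic medians kept their sign under each of the alternative scalings, floors, filters and summaries of probe sets that were run, from 0.39 to 0.52 at the end of hypoxia and from 0.20 to 0.63 at the later collection. The highest of these, 0.63 after cyclic hypoxia with reoxygenation, came with median centring, which moved the median of all genes there to 0.19. For 10 of 16 cytosolic genes every hypoxia array lay above both normoxia arrays (9.11% of all genes), namely Aars, Cars, Gars, Lars, Nars, Rars, Sars, Tars, Wars and Yars. In another probe set of Wars the array at the end of chronic hypoxia, at 148 units, was below both normoxia arrays. None of the 16 lay below both in every hypoxia array (9.72% of all genes), and of the 8 mitochondrial genes 0 lay above and 0 below. Without the array after cyclic hypoxia and reoxygenation, which had the lowest median signal (15.9 units, against up to 19.3), the cytosolic count was 11, against 13.4% of all genes.

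**Figure D2:**
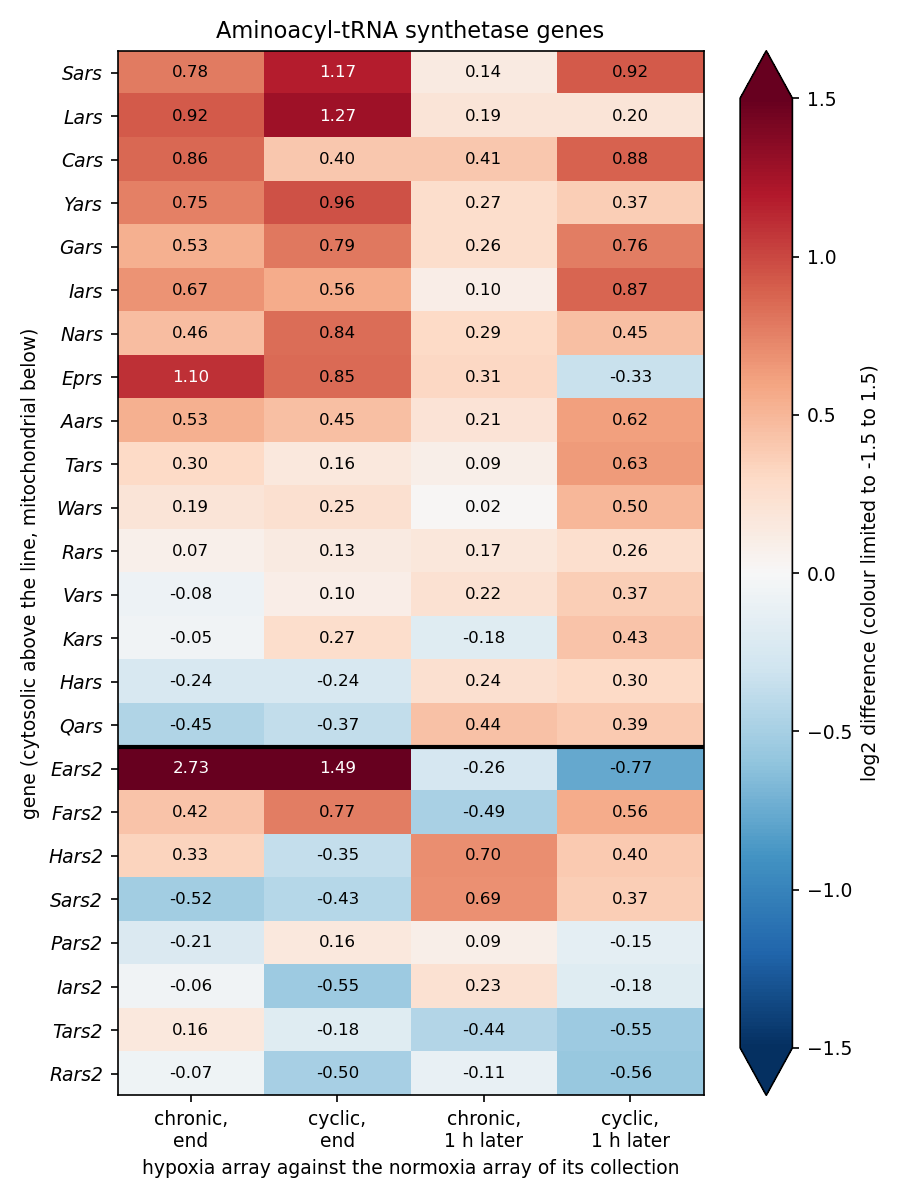
Log2 difference of each of the 24 genes (rows, in the order of the fitted change within each kind) from the normoxia array of its collection in the 4 hypoxia arrays (columns). Colour runs from blue (lower) to red (higher) and is limited to -1.5 to 1.5, with the value printed in each cell. The highest cytosolic value is 1.27 for Lars after cyclic hypoxia, and the largest value of all is 2.73 for Ears2 after chronic hypoxia.

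The enzymes for serine, glycine and alanine were above both normoxia arrays in every hypoxia array. Sars charges serine tRNAs and also the selenocysteine tRNA. Its signals were 479 units in normoxia and 591 units 1 h later, 824 and 651 units after chronic hypoxia without and with reoxygenation, and 1083 and 1121 units after cyclic hypoxia. The regimes, each taken with both collections, did not overlap, and both cyclic arrays were above both chronic ones. The log2 differences from normoxia were 0.78 and 1.17 at the end of chronic and cyclic hypoxia and 0.14 and 0.92 an hour later.

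Gars, the glycine enzyme of cytosol and mitochondria, had 749 and 892 units in normoxia, 1081 and 1067 units after chronic hypoxia and 1292 and 1514 units after cyclic hypoxia. The regimes did not overlap here either, and the cyclic arrays were again the highest. Aars, which loads alanine and edits mischarged serine, had 737 and 790 units in normoxia, 1067 and 914 units after chronic hypoxia and 1007 and 1211 units after cyclic hypoxia. Its highest signal came in the last hour after cyclic hypoxia. Tars, the threonine enzyme, showed log2 differences of 0.30 and 0.16 at the end of chronic and cyclic hypoxia and of 0.09 and 0.63 an hour later. Nars, the asparagine enzyme, differed by 0.46, 0.84, 0.29 and 0.45 in the same order.

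Cars loads cysteine, the amino acid that also limits glutathione synthesis. It had 62.6 and 66.8 units in normoxia, 113 and 88.7 units after chronic hypoxia and 82.6 and 123 units after cyclic hypoxia. The signal was thus highest at the end of chronic hypoxia and after the last hour of the cyclic regime. Yars, the tyrosine enzyme, had 46.9 and 62.1 units in normoxia, 79.1 and 74.6 units after chronic hypoxia and 91.1 and 80.2 units after cyclic hypoxia. Its hypoxia arrays lay above both normoxia arrays, which themselves differed by 0.40 on the log2 scale.

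A group of cytosolic synthetases is held in a large multisynthetase complex, of which 6 were measured (Eprs, Iars, Kars, Lars, Qars and Rars). These 6 were uneven. Lars, which loads leucine and serves as a leucine sensor for mTORC1, had 198 and 291 units in normoxia, 375 and 333 units after chronic hypoxia and 478 and 333 units after cyclic hypoxia. It was above normoxia throughout, by 0.92 and 1.27 at the end but by 0.19 and 0.20 an hour later, when its control was also 0.55 higher than the first normoxia array.

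Eprs had 238 and 339.7 units in normoxia, 508 and 422 units after chronic hypoxia and 429 and 270.1 units after cyclic hypoxia. It was 1.10 and 0.85 higher on the log2 scale at the end of hypoxia, and after cyclic hypoxia with reoxygenation it was the only cytosolic gene below its control, at -0.33. Its other 2 probe sets that passed the filter gave 0.19 and 0.54 at the end of chronic hypoxia. An hour after chronic hypoxia they gave 0.34 and 0.85, against 0.31 for the brightest. At the end of cyclic hypoxia they gave 0.12 and 0.43, and an hour after it -0.17 and 0.07. The size of the difference thus depended on the probe set, and an hour after cyclic hypoxia so did its sign. Iars, the isoleucine enzyme, had 228 and 213 units in normoxia, 365 and 227 units after chronic hypoxia and 336 and 389 units after cyclic hypoxia. Of its hypoxia arrays, only that after chronic hypoxia with reoxygenation lay within the range of normoxia, although a second probe set of Iars gave 0.65 there.

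The other 3 members of the complex had no hypoxia array past 1.5-fold from normoxia. Kars, the lysine enzyme, had 299 and 246 units in normoxia, 289 and 216 units after chronic hypoxia and 360.3 and 331 units after cyclic hypoxia. Both cyclic arrays were above all others and the chronic arrays were not above their controls. Rars, the arginine enzyme, differed by 0.07 to 0.26 on the log2 scale. Qars, the glutamine enzyme, had 466 and 369 units in normoxia, 342 and 501 units after chronic hypoxia and 361 and 484 units after cyclic hypoxia. Hypoxia arrays of Qars were thus below normoxia at the end and above it an hour later, and so were those of its third-brightest probe set, while its second-brightest gave 0.20, 0.33, -0.05 and 0.33 in the order of chronic and cyclic at the end and an hour later.

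Outside the complex, Hars, the histidine enzyme, had 285 and 226 units in normoxia, 241 and 266 units after chronic hypoxia and 242 and 278 units after cyclic hypoxia. All of its hypoxia arrays lay within the range of the normoxia arrays. Vars, the valine enzyme, differed by -0.08 to 0.37, and Wars, which loads tryptophan and is known as an interferon-induced gene, by 0.02 to 0.50. The other probe sets of Wars that passed the filter ran from -0.16 to 0.98. Over the 4 hypoxia arrays in the order above, the complex had medians of 0.37, 0.41, 0.18 and 0.32, and the 10 cytosolic genes outside it 0.49, 0.43, 0.23 and 0.56. The 2 structural classes of synthetases had medians of 0.43, 0.32, 0.21 and 0.38 for the 8 of class I and 0.46, 0.45, 0.21 and 0.62 for the 7 of class II.

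**Figure D3:**
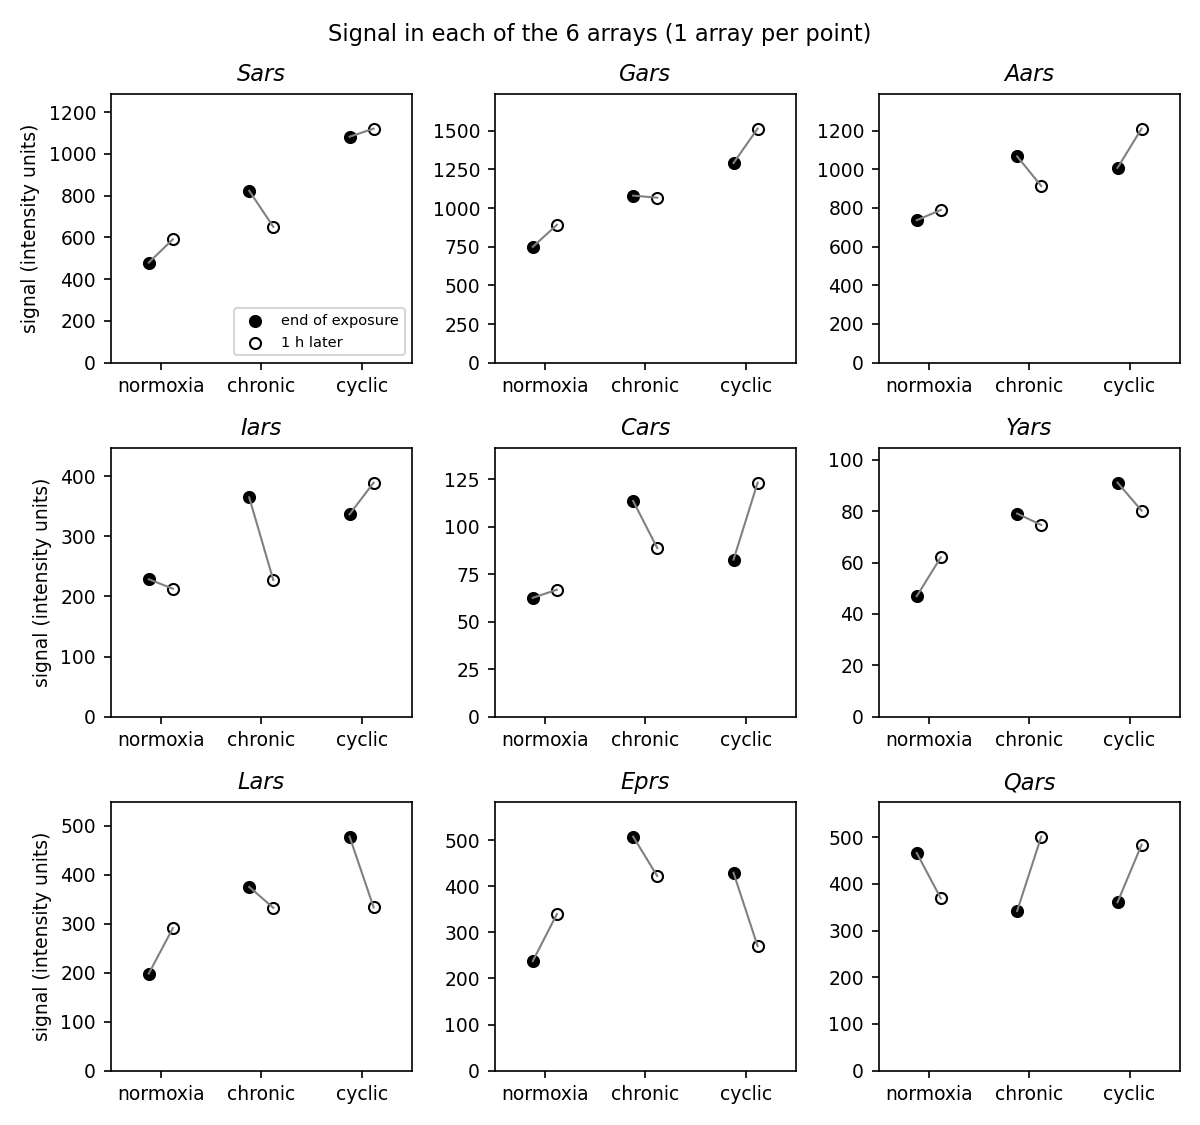
Signal in intensity units (vertical axis, from 0, with a scale of its own for each gene) of 9 cytosolic synthetase genes in the 6 arrays, filled points at the end of exposure and open points 1 h later, joined within each regime. Each panel shows the brightest probe set. Sars and Gars are highest after cyclic hypoxia (1083 and 1121 units, 1292 and 1514 units). Eprs and Lars are lower an hour after either hypoxia than at its end, and Qars runs the other way. Over that hour after chronic hypoxia, the other probe sets of Eprs past the filter were higher (log2 0.16 and 0.30). The second-brightest of Qars was lower there (-0.17) and its third-brightest higher (0.09).

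The mitochondrial enzymes had dimmer probe sets, with mean signals of 10.7 to 94.1 units against 72.3 to 1099 units for the cytosolic ones. Ears2, the glutamate enzyme, had 2.42 and 16.1 units in normoxia, 15.99 and 13.5 units after chronic hypoxia and 6.80 and 9.42 units after cyclic hypoxia. Its log2 differences of 2.73 and 1.49 at the end of hypoxia rest on a normoxia signal close to the floor of 2.10 units, and an hour later, against the later normoxia array, the differences were -0.26 and -0.77. Fars2, the phenylalanine enzyme, had 59.7 and 52.0 units in normoxia, 80.1 and 37.1 units after chronic hypoxia and 102.1 and 76.7 units after cyclic hypoxia. Both cyclic arrays were above both normoxia arrays, and the chronic ones lay on either side.

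Rars2 loads arginine in the matrix. It had 116 and 98.4 units in normoxia, 111 and 91.1 units after chronic hypoxia and 81.8 and 66.6 units after cyclic hypoxia. Its signal in every hypoxia array was below the control of the same collection, and the cyclic arrays were the lowest of the 6. Tars2, the threonine enzyme, had 36.3 and 48.2 units in normoxia, 40.5 and 35.6 units after chronic hypoxia and 32.1 and 33.0 units after cyclic hypoxia. Iars2, the isoleucine enzyme, had 76.6 and 52.8 units in normoxia, 73.6 and 61.7 units after chronic hypoxia and 52.5 and 46.6 units after cyclic hypoxia. For both of these the cyclic arrays were the lowest, and the chronic arrays overlapped normoxia.

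Hars2 (histidine) had 21.1 and 17.4 units in normoxia, 26.5 and 28.3 units after chronic hypoxia and 16.5 and 22.9 units after cyclic hypoxia. Its chronic arrays were above both normoxia arrays and its cyclic arrays were on either side of them. Sars2 (serine) had differences of -0.52 and -0.43 at the end of hypoxia and 0.69 and 0.37 an hour later, with the later normoxia array 1.04 below the first on the log2 scale. Pars2 (proline) differed by -0.21 to 0.16. The second probe sets of Fars2 and Tars2 that passed the filter had the sign of the brightest in 1 and 2 of the 4 hypoxia arrays. Among cytosolic genes 8 of 12 second probe sets had it in 4 of 4, 3 in 3 of 4 and 1, of Qars, in 1 of 4.

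The pair of normoxia arrays came from cells without hypoxia, collected 1 h apart. In their difference the added hour and the spread between arrays cannot be told apart. Between the normoxia arrays the log2 differences had an SD of 0.29 over the cytosolic genes, 1.14 over the mitochondrial genes and 0.39 over all genes. Of cytosolic genes, 0 were past 1.5-fold higher (2.84% of all genes) and 0 lower (5.99%) in the later normoxia array, the largest difference being 0.55 for Lars. Eprs (0.52), Yars (0.40), Sars (0.30) and Gars (0.25) were also higher there. The differences of these genes an hour after hypoxia are thus taken from a higher control than those at its end. For Eprs this holds for the brightest probe set, as its others past the filter differed by 0.008 and -0.008 between the normoxia arrays. Among mitochondrial genes Ears2 was higher by 2.74 and Sars2 lower, at -1.04.

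As a description, the comparison was also limited to bright genes, by a cut on mean signal and without matching. Cars, Vars and Yars fell under this cut. For the 3573 genes whose mean signal reached 100 units, medians were 0.03, 0.04, -0.03 and 0.03 in the 4 hypoxia arrays, and for the 13 cytosolic synthetases among them 0.46, 0.45, 0.19 and 0.45. Of these 13, 4, 5, 0 and 5 were at least 1.5-fold higher than normoxia, against 5.12%, 7.08%, 2.99% and 4.81% of the bright genes.

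Over the last hour itself the regimes can be set side by side within each. After chronic hypoxia the cytosolic genes had a median log2 difference of -0.17 between the array with reoxygenation and that at the end. Of them 0 were past 1.5-fold higher (6.96% of all genes) and 1, Iars at -0.68, was past it lower (5%). A second probe set of Iars was at 0.15 there. After cyclic hypoxia the cytosolic median was 0.17, with 0 past 1.5-fold higher (9.36%) and 1, Eprs at -0.67, past it lower (17.3%). Other probe sets of Eprs were at -0.28 and -0.37 there, and at 0.16 and 0.30 after chronic hypoxia. The brightest was at -0.27 after chronic hypoxia. Cars went opposite ways, with -0.36 after chronic and 0.58 after cyclic hypoxia, and so did Tars, with -0.23 and 0.45. Lars was lower after either, by -0.17 and -0.52. In normoxia the median was 0.05. Mitochondrial medians were -0.22, -0.21 and -0.22 for the chronic, cyclic and normoxic cells.

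Cyclic and chronic hypoxia were compared directly at each collection. At the end of exposure the cytosolic median was 0.07 higher after cyclic hypoxia, with 0 genes past 1.5-fold higher (5.28% of all genes) and 0 lower (11.5%). An hour later it was 0.28 higher, and 14 of 16 cytosolic genes were above 0, against 49.8% of all genes. Of these, Sars (0.79), Iars (0.78) and Kars (0.61) were past 1.5-fold (10.2% of all genes), and Eprs (-0.64) was past it on the lower side (21.7%). A second probe set of Iars was at 0.08 there. All 10 cytosolic genes outside the complex were higher in the cyclic array. Mitochondrial medians were -0.38 and -0.31, with Fars2 1.05 higher an hour later as the 1 of 8 above 0. The later value rests on the array with the lowest median signal, and its part in the difference was not tested. The cyclic regime, with reoxygenation between its hypoxic periods, also took longer in all than chronic hypoxia. The part of that added time in these differences was not tested.

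The test of each hypoxia took the 2 collections as stand-ins for replicates, in an additive limma fit with regime and collection. A gene whose difference faded within the hour counts as noise in it. With Benjamini-Hochberg adjustment over 13556 probe sets, 0 of 24 members passed 0.05 for the mean of both hypoxias (0.0148% of probe sets did), for chronic hypoxia (0.0959%) or for cyclic hypoxia (0%). At an unadjusted p under 0.05, 8 cytosolic members were higher for mean hypoxia (4.77% of probe sets) and 0 lower (4.14%). They were Sars, Gars, Nars, Aars, Lars, Yars, Cars and Iars, and 0 mitochondrial members were among them. For chronic hypoxia 5 cytosolic members were higher (3.98%) and 0 lower (1.37%). For cyclic hypoxia 8 were higher (5.19%) and 0 lower (9.74%), with Fars2 higher and Rars2 lower among mitochondrial members.

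For mean hypoxia the fitted log2 change was 0.75 (SE 0.161) for Sars and 0.58 (SE 0.125) for Gars, both with an adjusted p of 0.273 in limma and both above their control in 4 of 4 hypoxia arrays. Nars followed with 0.51 (SE 0.134, adjusted p = 0.377) and Aars with 0.45 (SE 0.142, adjusted p = 0.421). Lars was at 0.64 and Cars at 0.64, Yars at 0.59, Iars at 0.55 and Eprs at 0.48, with adjusted p-values of 0.468 to 0.614. The other cytosolic members ran from 0.30 for Tars through Wars (0.24), Rars and Vars (0.16 each), Kars (0.12) and Hars (0.01) to Qars (0.00). Among mitochondrial members Ears2 had the highest value, 0.80, with an SE of 0.676, followed by Fars2 (0.32) and Hars2 (0.27). Rars2 (-0.31), Tars2 (-0.25) and Iars2 (-0.14) were the lowest, with Sars2 at 0.03 and Pars2 at -0.03.

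For cyclic hypoxia alone Sars had 1.05 (SE 0.186, adjusted p = 0.115 in limma) and Gars 0.77 (SE 0.144, adjusted p = 0.120). Neither passed, and these calls moved with single arrays. Without the array at the end of cyclic hypoxia, the fitted change for mean hypoxia was 0.77 for Sars and 0.61 for Gars. For cyclic hypoxia it was then 1.08 for Sars, 1.02 for Iars, 0.83 for Gars and 0.70 for Aars. With the array of reoxygenated chronic cells left out, Sars had 1.05 for cyclic hypoxia. With median centring 2 members passed for cyclic hypoxia in limma, Sars (1.16, adjusted p = 0.0360) and Gars (0.88, adjusted p = 0.0482). The share of all probe sets passing with median centring is not given here, so these 2 calls cannot be set against it. Over the alternatives run, the fitted change for mean hypoxia ran from 0.53 to 0.98 for Sars and from 0.51 to 0.66 for Gars.

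**Figure D4:**
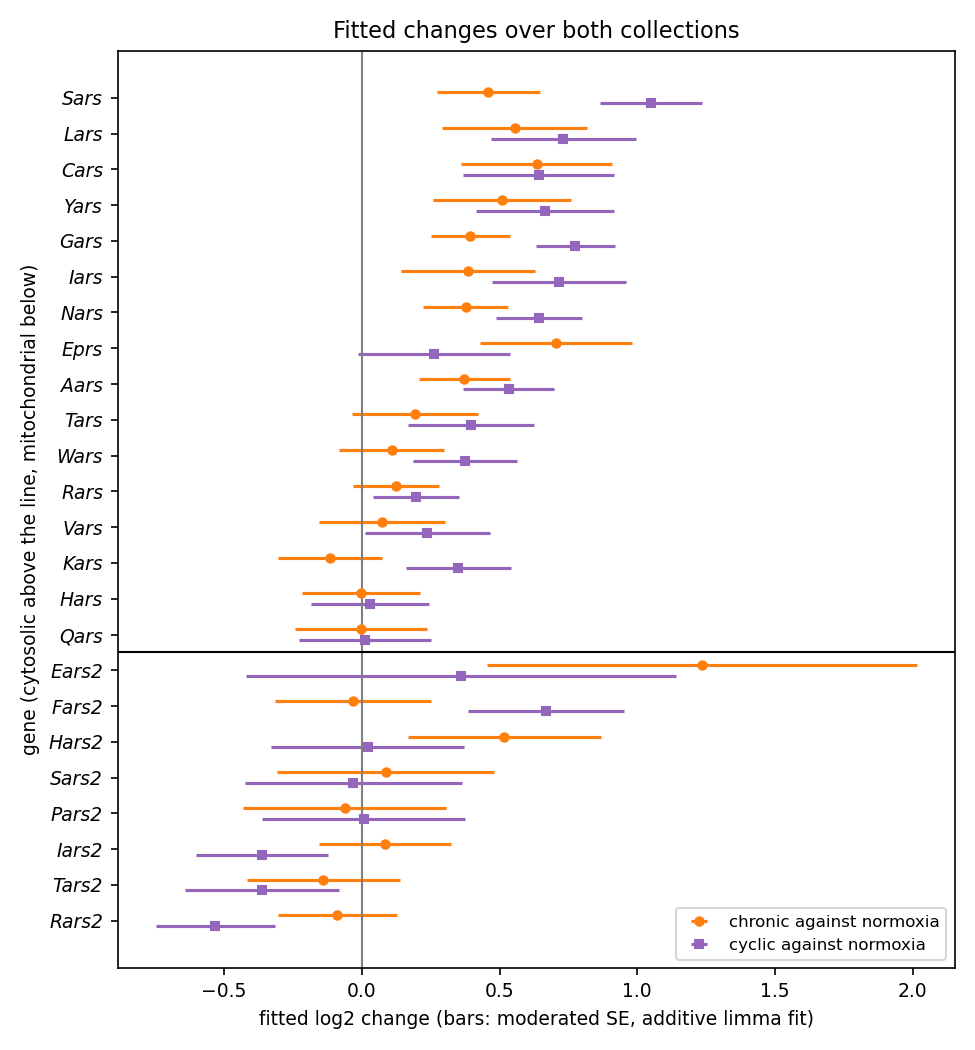
Fitted log2 change against normoxia (horizontal axis) of the 16 cytosolic (above the line) and 8 mitochondrial genes, with circles for chronic and squares for cyclic hypoxia and bars for the moderated standard error of the additive limma fit. Sars at 1.05 and Gars at 0.77 have the highest values for cyclic hypoxia, and Rars2 at -0.53 the lowest.

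Between cyclic and chronic hypoxia limma called 0 members (0% of probe sets). At an unadjusted p under 0.05, Sars (0.59), Kars (0.47), Gars (0.38) and the mitochondrial Fars2 (0.70) were higher after cyclic hypoxia (3.98% of probe sets) and 0 lower (10.5%). An interaction fit asked whether the difference between hypoxia and normoxia was different 1 h later. Chronic and cyclic hypoxia stand in for replicates in it. It called 0 members (0% of probe sets), with 1 at an unadjusted p under 0.05 on the higher side, Qars (0.83, 1.81% of probe sets), and 0 on the lower side (0.457%). Eprs at -0.98 (SE 0.481) and Lars at -0.90 (SE 0.396) had the lowest cytosolic values of this fit, and Ears2 at -2.62 (SE 1.13) the lowest mitochondrial one, each with an adjusted p of 1.00 in limma. The value for Eprs is that of its brightest probe set. Its other probe sets past the filter went from 0.19 and 0.54 above normoxia at the end of chronic hypoxia to 0.34 and 0.85 an hour later. For cyclic hypoxia they went from 0.12 and 0.43 to -0.17 and 0.07.

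The synthetases can be set beside the ATF4 pathway, of which many cytosolic synthetase genes are known targets. Of 31 ATF4 pathway genes named on the array, 29 passed the filter, and this list was drawn up with results of these arrays in view. At the end of exposure 17 of the 29 stood at least 1.5-fold above normoxia in the chronic array (median 0.63, 7.91% of all genes) and 11 in the cyclic array (median 0.39, 8.44% of all genes). An hour later these were 16 (8.82% of all genes) and 15 (10%), with medians of 0.62 and 0.71, and 1 gene, Cebpg, was past 1.5-fold lower after cyclic hypoxia with reoxygenation. For 16 of the 29 every hypoxia array was above both normoxia arrays (9.11% of all genes).

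Atf4 had 695 and 811 units in normoxia, 1415 and 1387 units after chronic hypoxia and 942 and 1198 units after cyclic hypoxia. Its mRNA was thus highest in the chronic arrays at both collections, whereas both cyclic arrays of Sars and Gars were above their chronic ones. Ddit3, the stress transcription factor CHOP, had 137 and 177 units in normoxia, 420.1 and 719.5 units after chronic hypoxia and 156 and 243 units after cyclic hypoxia. In the chronic fit Ddit3 was the 1 gene of this list that passed, and it rose by 1.82 (adjusted p = 0.0308 in limma, higher in 2 of 2 arrays). It did not pass without the array at the end of chronic hypoxia (adjusted p = 0.123), the one an hour later (0.165) or the later normoxia array (0.0792), nor without the filter (0.441) or the trend (0.423). Asns makes asparagine, the substrate of Nars. It had 1039 and 1341 units in normoxia, 1539 and 1412 units after chronic hypoxia and 1907 and 1948 units after cyclic hypoxia, and its cyclic arrays were the highest.

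The highest fitted values for mean hypoxia in the list were 1.48 for Trib3, a pseudokinase that restrains ATF4, 1.39 for Ppp1r15a, which directs the dephosphorylation of eIF2 alpha, 1.10 for Atf3 and 1.07 for Ddit3. Trib3 had 106 and 112 units in normoxia, 320.1 and 338 units after chronic hypoxia and 231 and 339.9 units after cyclic hypoxia. Ppp1r15a had 42.4 and 38.8 units in normoxia, 131 and 114 units after chronic hypoxia and 81.6 and 106 units after cyclic hypoxia. In both genes all hypoxia arrays were above both normoxia arrays. Atf3 had 21.5 and 25.1 units in normoxia, 106 and 41.0 units after chronic hypoxia and 25.2 and 55.4 units after cyclic hypoxia, so that its array at the end of cyclic hypoxia was level with the later normoxia array.

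At the other end of the list were Cebpg at -0.33, a C/EBP partner of ATF4, and Phgdh at 0.09, the first enzyme of serine synthesis. Cebpg had 121 and 119 units in normoxia, 174 and 166 units after chronic hypoxia and 90.6 and 31.4 units after cyclic hypoxia, above normoxia in both chronic and below it in both cyclic arrays. Phgdh had 1117 and 1184 units in normoxia, 1129 and 1047 units after chronic hypoxia and 1282 and 1486 units after cyclic hypoxia. For mean hypoxia 0 of the 29 passed in limma, and 19 were higher (4.77% of probe sets) and 0 lower (4.14%) at an unadjusted p under 0.05.

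Genes that work next to the synthetases are given by their fitted change for mean hypoxia. The scaffold genes Aimp1, Aimp2 and Eef1e1 of the complex and the subunits of the cytosolic phenylalanine enzyme, Farsa and Farsb, had fitted changes of -0.02, 0.16, -0.16, -0.05 and -0.02, and 0 of the 5 were past 1.5-fold in a hypoxia array. The cytosolic elongation factor genes Eef1a1, Eef1b2, Eef1d and Eef2 were at 0.26, 0.11, 0.01 and 0.20. Of the kinases that phosphorylate eIF2 alpha, Eif2ak3 (PERK) was at 0.49, Eif2ak1 at 0.09, Eif2ak2 at -0.17 and Eif2ak4 (GCN2, which senses uncharged tRNA) at -0.18. These means cover unlike arrays. Eif2ak3 was 1.21 above normoxia at the end of cyclic hypoxia, and an hour after chronic and cyclic hypoxia Eif2ak2 was at 0.40 and -1.36 and Eif2ak4 at 0.51 and -1.07. In the mitochondrial apparatus, Gatb, Gatc and Qrsl1, which form glutaminyl-tRNA by amidation, were at 0.43, -0.14 and -0.13. Mtfmt, which formylates the initiator tRNA, was at -0.22, and the translation factors Gfm1, Gfm2, Mtif2 and Tufm at 0.08, 0.17, -0.39 and -0.40. For Mtif2 the fitted value was 0.11 for chronic and -0.90 for cyclic hypoxia (adjusted p = 0.194 in limma), with -1.21 an hour after cyclic hypoxia, where Gatb was at 1.35. Eif2ak2, Eif2ak3, Eif2ak4, Mtif2 and Gatb were the genes of these groups past 1.5-fold in a hypoxia array, each in 1 array. In limma 0 of these genes passed for mean hypoxia, and 1, Eef1a1, had an unadjusted p under 0.05.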

How the data were processed

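The authors' deposited values were signal intensity values on a linear scale for 22690 probe sets in 6 arrays. The submitters' processing notes name GCOS, and its version and algorithm are not given in the sources used here. The trimmed mean of every array was 100 units, so this scaling was kept. Values under 2.10 units (the 20th percentile) were set to that floor before log2, and 64 control probe sets and those with a mean signal under 8.33 units (the 40th percentile) were left out, which left 13556 probe sets. Of these, 12494 named 1 gene each, 7746 genes in all. Of all probe sets 20393 named 1 gene, 691 several and 1606 none, and 20364 had a current symbol by Entrez identifier.

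Single-array differences carry no error of their own and were described by counts at 1.5-fold and 2-fold. Tests used limma 3.58.1 in R 4.3.3, on all 6 arrays with an intensity trend, two-sided, with Benjamini-Hochberg adjustment at 0.05. The additive and the interaction fit each had 2 residual degrees of freedom. As no label describes separate cultures as replicates, p-values measure only the spread between these arrays, and the number of arrays limits the precision. Members, lists and tests were chosen with earlier results of these data known. All 24 members were to be named. Signals in 6 arrays were given for members past a threshold, the 6 highest and 3 lowest cytosolic and the 3 highest and 3 lowest mitochondrial members by fitted change, and those 1.5-fold from normoxia one way in both hypoxia arrays of a collection. Aars was added to these after its values were seen. From the ATF4 list, Atf4, Ddit3, Asns, the 4 highest and the 2 lowest were named, and other lists in full. The alternatives were quantile normalization, median centring, another floor, log2(value + 16), no filter, the mean of probe sets, no trend and each array left out. The count without the array after cyclic hypoxia and reoxygenation was chosen after seeing the data.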

Additional observations from a re-analysis of the deposited data

Results flagged for a closer look

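Qars and Sars2 differed from normoxia in opposite directions at the 2 collections, in both hypoxia regimes. For Qars the log2 differences at the end of exposure were -0.45 for chronic and -0.37 for cyclic hypoxia, and 0.44 and 0.39 an hour later. Its third-brightest probe set turned in the same way. Its second-brightest did not, with 0.20 and 0.33 at the end and -0.05 and 0.33 an hour later. For Sars2 the log2 differences were -0.52 and -0.43 at the end, and 0.69 and 0.37 an hour later. Sars2 was dim, with signals of 14.5 to 29.8 units. With 1 array per group these opposite directions were not tested as such. In the interaction fit, which takes chronic and cyclic hypoxia together, the difference between collections was 0.83 for Qars (SE 0.345) and 1.00 for Sars2 (SE 0.645), each with an adjusted p of 1.00 in limma. The normoxia arrays themselves differed, the later one lying at -0.34 for Qars and -1.04 for Sars2 from the first on the log2 scale. Their part in the pattern was not tested. No group held enough arrays to look for a single array far from its group.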

How the results depend on the processing

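Of 536 values recomputed under an alternative, 493 kept their direction and their side of the threshold or stayed within 1.5 times the count, and 294 of 312 member values kept their sign. With quantile normalization the mitochondrial median was -0.16 at the end of cyclic hypoxia and 0.0099 an hour later, with 1 mitochondrial gene past 1.5-fold higher an hour after either hypoxia, and Pars2 was at 0.014. With median centring that later median was 0.024 with 1 gene higher, Pars2 was at 0.025, and 2 members passed for cyclic hypoxia. The share of all probe sets passing there is not given here. With log2(value + 16) the mitochondrial median was -0.16 at the end of cyclic hypoxia with 1 gene higher, 0 were higher an hour after chronic and 0 lower an hour after cyclic hypoxia, and Sars2 was at -0.0061. With the mean of probe sets 1 mitochondrial gene was higher at the end of cyclic hypoxia and 1 an hour later.

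With each array left out in turn, 0 to 2 members passed for mean and 0 to 4 for cyclic hypoxia. The fitted cytosolic median ran from 0.34 to 0.55 and the mitochondrial one from -0.15 to 0.10. Fitted values changed sign for Eprs (-0.0084 to 0.97), Hars (-0.24 to 0.27), Qars (-0.41 to 0.42), Ears2 (-0.51 to 2.11), Hars2 (-0.0097 to 0.55), Iars2 (-0.30 to 0.024), Sars2 (-0.47 to 0.53) and Pars2 (-0.14 to 0.088). Without the first normoxia array Eprs, Ears2 and Iars2 turned, and without the later one Hars, Qars, Hars2 and Sars2. Hars, Qars and Sars2 also turned without the array after chronic or cyclic hypoxia with reoxygenation, and Pars2 without the chronic array or the latter. The cause was not tested. An array left out leaves 1 regime with a lone array, taken to vary like the others. The labels give no replicate numbers that pair arrays across groups, and the additive fit already holds the collection as a term.

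Array signals carry no depth. The SD between the normoxia arrays was 0.66 over genes under 30 units and 0.21 over genes above 100 units, and the part of background in the dim mitochondrial genes was not tested.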
